A study of Homo sapiens with 12 samples.

Results

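CHR-3996, an inhibitor of histone deacetylases, and tosedostat, an inhibitor of aminopeptidases, were combined in H929 cells, a human multiple myeloma line. The question taken up here is which transcripts, in cells exposed to both compounds, departed from the sum of the changes seen with each compound alone. The arrays form a two-by-two design, and all 12 of the 12 arrays of the series enter it: 3 arrays of cells given 250 nM CHR-3996 with 1 µM tosedostat, 3 given 250 nM CHR-3996 alone, 3 given 1 µM tosedostat alone, and 3 of untreated cells. The treated cells were sampled at 24 hours, and the labels give no time for the untreated cells. Each compound was tested at 1 dose and 1 time in 1 cell line, so the design says nothing of other doses, times or lines. The labels call the arrays of a group biological replicates without saying that each had its own culture, so the p-values rest on the spread among these arrays alone.

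Histone deacetylases remove acetyl groups from histones and other proteins, and their inhibitors raise the transcription of many silent or weakly transcribed genes while lowering genes of the cell cycle. Aminopeptidases trim single amino acids from the ends of the peptides that the proteasome releases, and cells whose peptide recycling is blocked are known to switch on genes of the amino acid response, which the transcription factors ATF4 and CHOP control. Compounds that act on a gene independently are often described as additive on the log scale, where fold changes multiply, or as additive on the linear scale, where the amounts of transcript gained add up. Both scales are given below, since they answer differently for genes that both compounds change strongly.

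For each probe set (a group of array probes for 1 transcript) the departure was taken as the combination minus CHR-3996 minus tosedostat plus untreated, on the log2 scale of the deposited values. It is 0 where the log2 change of the combination equals the sum of the single log2 changes, and it equals the effect of CHR-3996 in the presence of tosedostat minus its effect in the absence of tosedostat. A probe set or gene is said to be called lower or higher where this departure passed a Benjamini-Hochberg adjusted p of 0.05 in limma over the 36395 probe sets tested. Lower means that the combination fell short of the log2 sum, whether or not it fell below untreated cells. A gene stands by the brightest of its tested probe sets that has 1 symbol, which gives 15587 genes.

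Within a group, pairs of arrays had an r between 0.978 and 0.983. The median log2 value of an array averaged 5.29 ± 0.02 for the combination, 5.26 ± 0.03 for CHR-3996, 5.05 ± 0.01 for tosedostat and 5.04 ± 0.04 for untreated cells (SD, n = 3 each). The actin control probes at the 3′ end exceeded those at the 5′ end by 1.24 ± 0.15 on the log2 scale for the combination, 1.59 ± 0.17 for CHR-3996, 2.09 ± 0.11 for tosedostat and 2.14 ± 0.17 for untreated cells (SD, n = 3 each). The part of this difference in the results below was not tested. All 10 plasma cell and myeloma markers checked lay above the mean 40th percentile of the arrays, 4.54, in untreated cells, SDC1, CD38, TNFRSF17 and IRF4 among them. Of 15 markers of other cell types, 7 did so: CD2 and CD3E of T cells, KLRD1 of NK cells, CSF1R of monocytes at 6.22, COL1A1 of fibroblasts at 7.38, HBB of red cells, and NCAM1, an adhesion molecule that myeloma cells also carry. NCAM1 averaged 11.5 with the combination, 11.6 with CHR-3996, 9.23 with tosedostat and 9.43 in untreated cells, and HBB 8.06, 8.01, 6.27 and 6.34 in the same order. Their part in the results was not tested. The other 8, CD3D, CD14, CD163, COL1A2, COL3A1, PDGFRB, CDH5 and VWF, lay below that percentile in untreated cells.

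Calls at the adjusted threshold were few and ran mostly in 1 direction. Of 36395 probe sets, 75 were called, or 0.206%. Of these 67 were lower (0.184%) and 8 were higher (0.022%). By gene, 43 of 15587 were called (0.276%), 38 lower (0.244%) and 5 higher (0.0321%). At an unadjusted p of 0.05, 3712 probe sets passed (10.2%), 2021 lower (5.55%) and 1691 higher (4.65%), and 1742 genes (11.2%). The median departure over all probe sets tested was 0.01 on the log2 scale, so the excess of lower calls did not go with a shift of the whole distribution. The 95% interval of the departure lay within 1 of 0 on the log2 scale for 23480 probe sets (64.5%) and for 10869 genes (69.7%), for which a departure of more than 2-fold either way lay outside the interval. For probe sets in neither of these counts a departure was neither called nor bounded, and the median standard error of a departure was 0.26. With 1 array left out at a time, between 21 of the 75 calls (without combination replicate 3) and 56 (without CHR-3996 replicate 1) remained, and 18 remained in all 12 such fits.

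**Figure D1:**
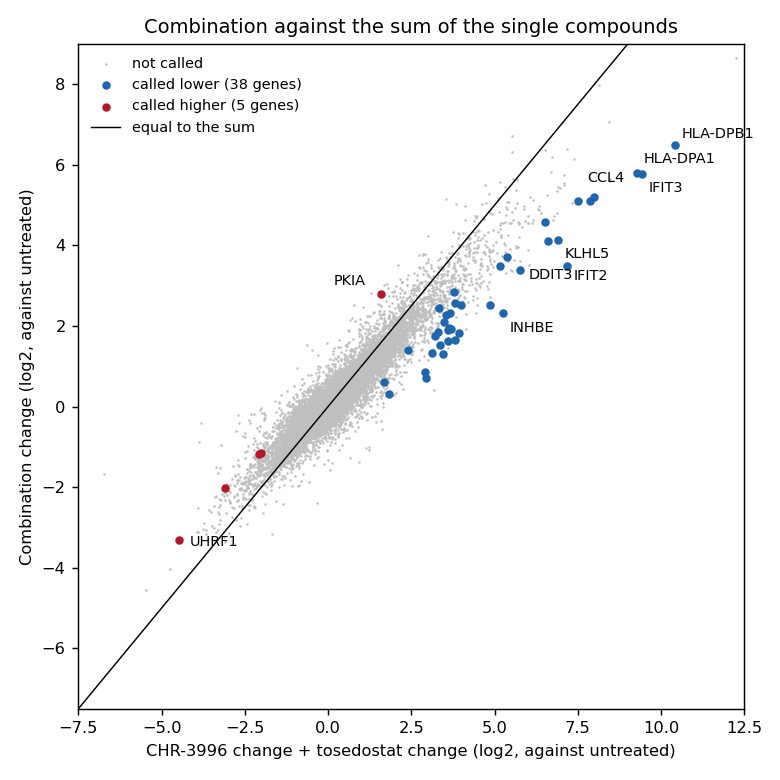
Each point is 1 of 15587 genes, with the sum of the CHR-3996 and tosedostat changes on the x axis and the change under the combination on the y axis, both as log2 against untreated cells. The 38 genes called lower (blue) lie below the line of equality, and the 5 called higher (red) lie above it.

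The 67 probe sets called lower were, in nearly every case, raised by each compound alone. The CHR-3996 change was above 0 in 65 and the tosedostat change in 67, and 61 passed the limma test as raised under both. The departure subtracts both single changes, so a lower call itself favours probe sets with high single changes. The share raised under both was not counted over all probe sets tested. Their median change was 2.52 on the log2 scale for the combination, 2.36 for CHR-3996 and 2.06 for tosedostat. The combination mean lay above both single compounds in 31, between them in 28 and below both in 8. Over all 36395 probe sets the combination mean lay above both in 37.7%, between in 44% and below both in 18.2%. All 3 combination arrays stood above all 9 other arrays in 9 of the 67, against 5.07% of all probe sets, and below all 9 in 0 of the 67, against 0.687%. The combination mean lay nearer to the CHR-3996 mean in 53 of the 67 and nearer to the tosedostat mean in 14. In 20 of the 67 the tosedostat change was the larger of the single changes, and in 14 of those 20 the combination mean lay nearer to CHR-3996 than to tosedostat. In the other 47, where the CHR-3996 change was the larger, the combination mean lay nearer to CHR-3996 in 39. Nearness to either single compound was not counted over all probe sets tested, so these counts do not set the called ones apart. The changes of the 3 treatments share the untreated arrays, and these counts describe the probe sets without a test.

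Among called genes, those with the widest departures belong to the MHC class II family, which presents peptides taken up from outside the cell to helper T cells, and to the interferon response. Of the 53 genes called by any of their probe sets, 39 had a promoter window in RefSeq (250 bases before to 50 after a start site, GRCh38.p14), 34 of the 46 called lower and 5 of the 7 called higher. Motifs were searched on both strands, as a description. The interferon stimulated response element, written TTTCNNTTTC, was found in 5 of the 34 (14.7%), in 4.06% of the 12413 genes tested that have a window and in 4.38% of all 27305 genes with one. The stretches below show this motif in capitals in the genes whose departures are described next, each read 5′ to 3′ on the strand of the gene.
IFIT3, chr10:89327851-89327908, + strand, motif from position −122 of the start site: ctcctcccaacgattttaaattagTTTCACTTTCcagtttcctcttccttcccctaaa
IFIT3, second start site, chr10:89332454-89332511, + strand, motif from position −51: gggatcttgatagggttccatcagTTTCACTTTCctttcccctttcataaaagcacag
IFIH1, chr2:162318804-162318861, − strand, motif from position −153: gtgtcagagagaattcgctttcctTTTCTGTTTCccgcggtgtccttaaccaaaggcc
KLHL5, chr4:39062089-39062146, + strand, motif on the opposite strand from position −119: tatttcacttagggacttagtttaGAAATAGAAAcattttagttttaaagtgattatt

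The same 10 letters, TTTCACTTTC, stand in both start windows of IFIT3. FCRLA and FAM171B also held the motif. The C/EBP-ATF response element, written TGATGNAA, was found in 6 of the 34 called lower (17.6%), against 3.34% of the genes tested. These were ALPK2, ATF3, FCRLA, IFIT3, PLAC1 and TMEM154. The called stress genes DDIT3, CTH, SESN2 and SQSTM1 have a window without it. The Y box of class II promoters, written CTGATTGG and added to the search after the calls were seen, was found in 6 (17.6%), against 6.15%. These were BBIP1, DDIT3, HLA-DMA, HLA-DQB1, NFE2L1 and SESN2, while HLA-DPA1 and HLA-DPB1 have a window without it. Matches are shown for a stress factor and for 2 class II genes, with the motif in capitals.
ATF3, chr1:212565192-212565247, + strand, C/EBP-ATF element from position −191: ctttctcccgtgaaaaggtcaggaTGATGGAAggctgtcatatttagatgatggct
HLA-DQB1, chr6:32666717-32666772, − strand, Y box from position −91: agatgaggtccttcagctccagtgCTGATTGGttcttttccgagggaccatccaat
HLA-DMA, chr6:32953148-32953203, − strand, Y box from position −82: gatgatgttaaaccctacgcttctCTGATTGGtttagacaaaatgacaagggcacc

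The promoter windows of DDIT3 and SESN2, stress genes described further on, held the Y box too. The cyclic AMP response element TGACGTCA was found in 0 of the 34, against 3.42% of the genes tested, and the heat shock element GAANNTTCNNGAA in 0, against 0.532%. The NF-kappaB motif was found in 9 of the 34 (26.5%), against 16.8% of the genes tested. A match says only that these letters occur in the window.

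MHC class II genes had the largest departures among the genes called. Of 16 genes of the class II list tested, 4 were called lower and 0 higher, against 0.244% and 0.0321% of all genes. The median departure was −0.68, beside 0.01 over all genes tested. HLA-DPA1, the alpha chain of HLA-DP, measured 10.29, 10.57 and 10.27 in combination arrays, 9.68, 10.05 and 9.69 in CHR-3996 arrays, 9.12, 8.21 and 8.58 in tosedostat arrays and 4.48, 4.87 and 4.41 in untreated arrays, on the log2 scale. All 3 combination arrays were above all 9 others, and every treated array was far above the untreated ones. The departure was −3.48 ± 0.32 (SE; 95% interval −4.18 to −2.79; limma adjusted p = 0.00195), which is 11.2-fold below the level the log2 sum gives. That level was 13.9 for HLA-DPA1 and 14.9 for IFIT3, beside 13.61 for the brightest plasma cell and myeloma marker in untreated cells. Whether the arrays read such levels without reaching an upper limit was not tested. HLA-DPB1, the beta chain, rose by 6.49 with the combination, 6.01 with CHR-3996 and 4.40 with tosedostat, with a departure of −3.92 (adjusted p = 0.00287). HLA-DQB1 was called by 5 of its 6 probe sets, with −2.77 at the brightest (adjusted p = 0.0127) and between −5.16 and −2.60 over the called ones. HLA-DMA, which helps to load peptides on class II molecules, departed by −1.92 (adjusted p = 0.0287). HLA-DRA was called by the dimmer of its 2 probe sets, with −3.83 (adjusted p = 0.0242), and gave −2.29 (adjusted p = 0.177) at the brighter.

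The class II departures depended on the scale of addition. On the linear scale, where the gain of each compound over untreated cells is added to the untreated level, HLA-DPA1 had a mean of 1334 in the combination against a linear sum of 1289.5. For HLA-DPB1 the combination mean was 976 and the linear sum 925, and for HLA-DMA they were 940 and 842. The log2 ratio of the combination to the linear sum lay between −0.09 and 0.38 for the 9 class II probe sets called, and 8 of the 9 were above 0. No class II gene of the list passed the linear test in either direction. Untreated means were 4.59 for HLA-DPA1, 3.42 for HLA-DPB1 and 2.35 for the called HLA-DRA probe set, near or below the mean 40th percentile of 4.54, and a value so low is only a bound on the true level. With values below the 40th percentile of an array set to that percentile, the departure was −3.47 for HLA-DPA1, −2.90 for HLA-DPB1 and −1.73 for that HLA-DRA probe set, of which the last was no longer called (adjusted p = 0.149). The x and s probe sets of this family may also take up RNA of related genes. Other members did not pass: HLA-DQA1 had −2.52 (adjusted p = 0.0803), HLA-DRB1 −0.87 (adjusted p = 0.284) and RFX5, a factor that binds class II promoters, −0.86 (adjusted p = 0.197). CIITA, the transactivator that switches class II genes on, had 0.25 with an interval of −0.18 to 0.68 at its brightest probe set. Its changes there lay between −0.15 and −0.04 under the 3 treatments. The dimmer probe set of CIITA had −0.23 and was not called, with changes of −0.36 for the combination, −0.09 for CHR-3996 and −0.03 for tosedostat. HLA-DPA1 had 2 further probe sets, at −0.39 and −0.04, that were not called, and the median of its 3 probe sets departed by −1.61 (adjusted p = 0.0242).

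**Figure D2:**
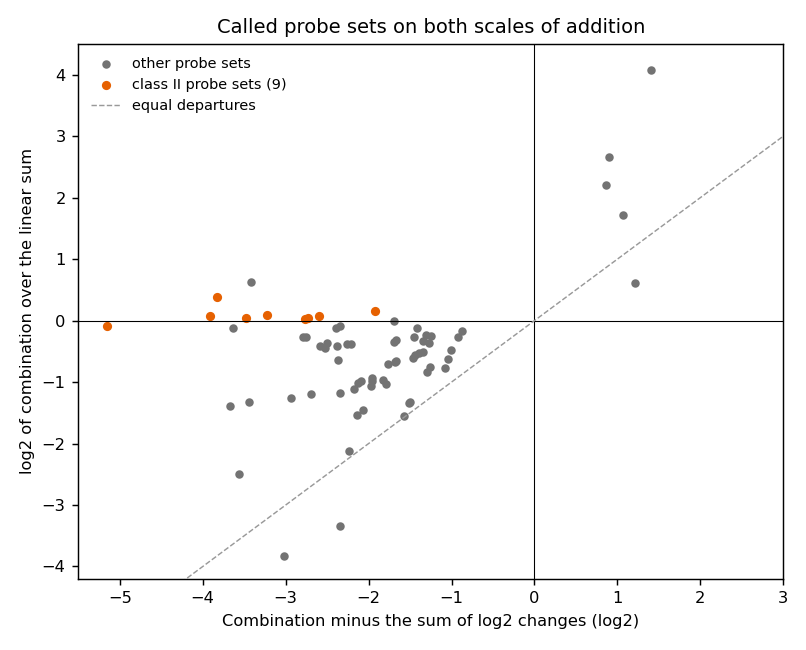
Each point is a called probe set, with the departure from the sum of log2 changes on the x axis and the log2 ratio of the combination mean to the linear sum on the y axis, for the 72 of 75 whose linear sum was above 0. The 9 class II probe sets (orange) lie near 0 on the y axis, while most other probe sets called lower lie below 0 on both axes.

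Of the 67 probe sets called lower, 58 were below the linear sum as well and 9 were above it. On the linear scale 25 of the 67 passed limma as lower and 1, a probe set with no gene in the annotation used here, passed as higher. The linear fit also let the variance follow intensity, with robust estimation, so its counts are not a like comparison with the log2 fit. Of the 8 called higher, 6 passed as higher on the linear scale. Where both compounds lower a gene, the linear sum lies below the log2 sum. A gene above the log2 sum is then above the linear sum by arithmetic. The genes called lower on both scales were ADAM8, ALPK2, CBS, CTH, FCRLA, IFIH1, INHBE, KLHL5, MKX, NFE2L1, NLRP7, NTS, R3HDM2, RNF19B, SESN2, SH2D3C, SQSTM1, TMEM154 and UBE2QL1, each by at least 1 probe set.

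Interferon response genes lay mostly below the log2 sum as well. Of 25 tested, 3 were called lower and 0 higher, against 0.244% and 0.0321% of all genes. The median was −0.66, and 20 were below 0, against 7547 of all 15587 genes. IFIT3, an antiviral protein induced by interferon, measured 11.61, 10.58 and 11.60 in combination arrays, 11.17, 10.29 and 11.54 in CHR-3996 arrays, 9.57, 9.52 and 9.06 in tosedostat arrays and 5.60, 5.58 and 5.26 in untreated arrays. Replicate 2 was the lowest both in the combination and in CHR-3996, and these groups overlapped. Its departure was −3.63 ± 0.48 (SE; adjusted p = 0.017), and its second probe set had −2.60 (adjusted p = 0.0822). The combination mean was 2588 on the linear scale, against a linear sum of 2807, a difference that did not pass. Tosedostat alone raised IFIT2, a related antiviral protein, the most. It measured 6.45, 6.19 and 6.42 in combination arrays, 5.93, 5.15 and 5.33 in CHR-3996 arrays, 7.86, 7.41 and 6.96 in tosedostat arrays and 2.46, 2.79 and 3.33 in untreated arrays. Every combination array was below every tosedostat array and above every CHR-3996 array. The departure was −3.67 (adjusted p = 0.00552), or −2.08 with low values set to the 40th percentile (adjusted p = 0.0154).

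IFIH1, the cytosolic RNA sensor MDA5, rose by nearly the same amount under every treatment. Its change was 1.94 for the combination, 1.85 for CHR-3996 and 1.85 for tosedostat, with overlapping arrays in the 3 groups. The departure was −1.76 (interval −2.22 to −1.30; adjusted p = 0.0108), and 1186 in the combination against a linear sum of 1929 passed the linear test (adjusted p = 0.0113). Its other 2 probe sets had −0.71 and −1.71 and were not called, and the median of the 3 was −0.79 and not called (adjusted p = 0.234). SAMD9L, an antiviral factor outside the list, had −1.69 (adjusted p = 0.039), with changes of 1.90, 1.80 and 1.78 in the same order. IFIT1 had −2.89 (adjusted p = 0.105) and MX1 −2.10 (adjusted p = 0.103), neither called. XAF1 had the highest value of the list, 0.60 (adjusted p = 0.374).

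Genes of the ATF4 and CHOP stress response formed the group with the most calls. Of 25 tested, 5 were called lower and 0 higher, against 0.244% and 0.0321% of all genes, and the median was −0.81. At an unadjusted p of 0.05, 15 of the 25 were lower and 1 was higher, against 972 (6.24%) and 770 (4.94%) of 15587 genes. The medians over the list of each change against untreated cells were 0.71 for the combination, 0.72 for CHR-3996 and 0.71 for tosedostat. The median of the list on single arrays, relative to the untreated means, lay between 0.64 and 0.74 in the combination. It lay between 0.34 and 1.14 in CHR-3996 and between 0.65 and 0.79 in tosedostat, so the 3 treated groups overlapped. DDIT3, which encodes CHOP, measured 10.53, 10.49 and 10.06 in combination arrays, 10.41, 10.89 and 10.80 in CHR-3996 arrays, 9.04, 9.14 and 8.81 in tosedostat arrays and 7.18, 6.91 and 6.83 in untreated arrays. The combination overlapped with CHR-3996 and lay above tosedostat. The departure was −2.36 ± 0.25 (SE; adjusted p = 0.00538). ATF3, a transcription factor induced by stress, departed by −1.67 (adjusted p = 0.0203), with changes of 3.71 for the combination, 3.87 for CHR-3996 and 1.52 for tosedostat, while its dimmer probe set had −0.07 and the median of both −0.87 (adjusted p = 0.0876).

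SESN2, which restrains mTORC1 when amino acids are short, had similar levels under the 3 treatments. It measured 10.52, 10.15 and 10.11 in combination arrays, 10.14, 10.42 and 10.42 in CHR-3996 arrays, 10.74, 10.44 and 10.37 in tosedostat arrays and 8.90, 8.56 and 8.41 in untreated arrays. The 3 treated groups overlapped, and the combination mean lay below both single compounds. Both probe sets were called, with −1.95 (adjusted p = 0.0127) and −1.97 (adjusted p = 0.046), and both passed on the linear scale. CTH, the enzyme that releases cysteine from cystathionine, had −2.17 (adjusted p = 0.0288), with changes of 1.65, 1.57 and 2.26 for the combination, CHR-3996 and tosedostat. CBS, which makes cystathionine in the step before, had −1.52 (adjusted p = 0.0317) and was the 1 called gene of 17 tested for asparagine, serine and one-carbon synthesis. It measured 8.38, 8.32 and 8.26 in combination arrays, 8.08, 8.74 and 8.09 in CHR-3996 arrays, 9.55, 9.51 and 9.56 in tosedostat arrays and 7.96, 8.11 and 7.94 in untreated arrays. All tosedostat arrays stood above all others, and the combination overlapped with CHR-3996. SQSTM1, the autophagy receptor p62, departed by −1.004 (adjusted p = 0.0436) at the brightest of 5 probe sets, the others being between −2.24 and −0.07 and not called, nor was their median (adjusted p = 0.239). CHAC1, which breaks down glutathione, had −2.15 (adjusted p = 0.0532) and SLC7A11, the cystine transporter, −1.60 (adjusted p = 0.0508), just outside the threshold. TXNIP stood on the other side with 0.94 (adjusted p = 0.193).

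INHBE, an inhibin beta chain that rises in the amino acid response and was in no list, had the largest departure of the genes whose 4 group means were all above the 40th percentile and whose linear test also passed. It measured 10.40, 10.72 and 10.17 in combination arrays, 9.76, 10.78 and 10.48 in CHR-3996 arrays, 11.25, 11.07 and 11.10 in tosedostat arrays and 8.16, 8.18 and 8.01 in untreated arrays. Every combination array was below every tosedostat array. The departure was −2.93 ± 0.33 (SE; adjusted p = 0.006), 7.64-fold below the log2 sum, and the combination mean of 1396 compared with a linear sum of 3333 (linear adjusted p = 0.00682). GTPBP2, a GTP-binding protein involved in the rescue of stalled ribosomes, had −1.83 (adjusted p = 0.0287), although the median of its 2 probe sets was not called (adjusted p = 0.178). NFE2L1, a factor that raises proteasome genes, was called by 1 of its 3 probe sets, not the brightest. That probe set had changes of 0.22 for the combination, 0.04 for CHR-3996 and 1.75 for tosedostat, and a departure of −1.58 (adjusted p = 0.0352).

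**Figure D3:**
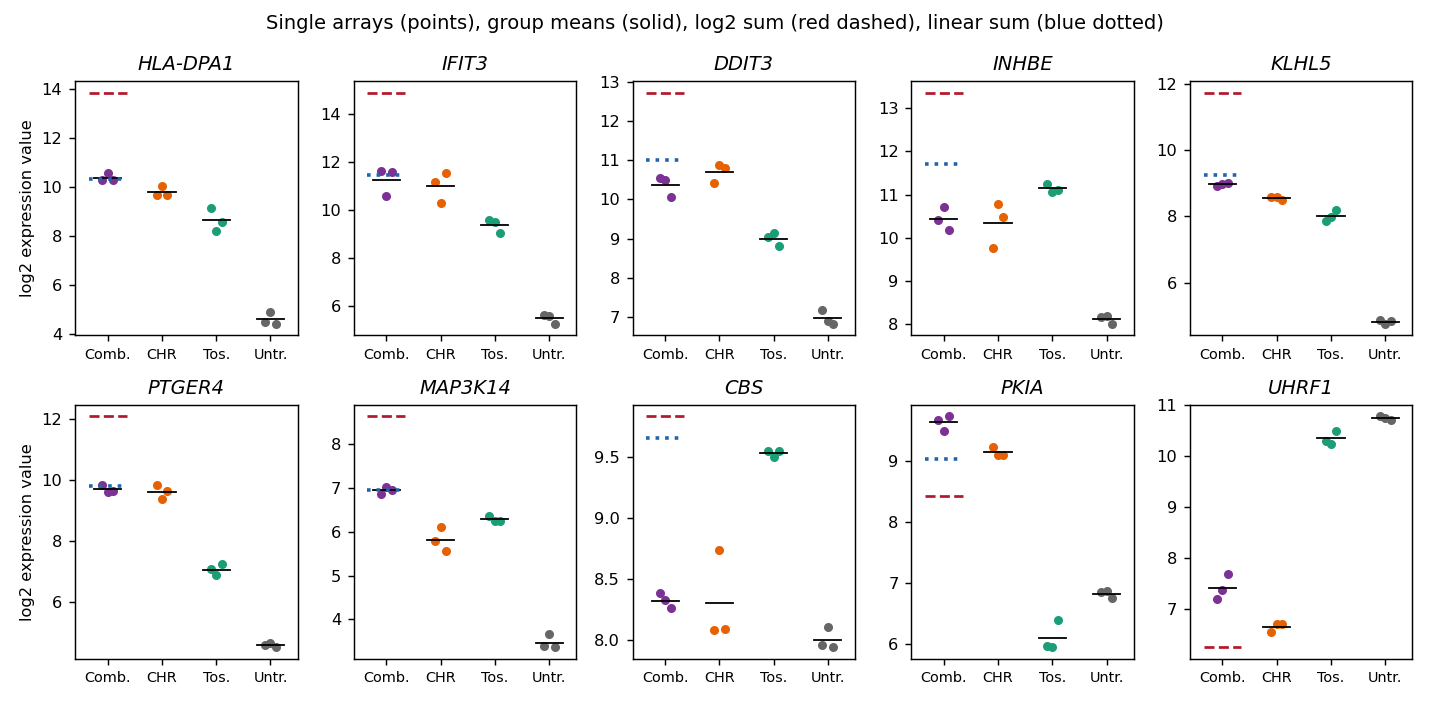
Log2 values of 10 genes on each array (points) with group means (solid lines), for the combination (Comb.), CHR-3996 (CHR), tosedostat (Tos.) and untreated cells (Untr.); the red dashed line is the level the log2 sum gives for the combination and the blue dotted line the level the linear sum gives, where that is above 0. HLA-DPA1 and MAP3K14 sit on the linear sum, INHBE and CBS lie below both levels, and PKIA and UHRF1 lie above the log2 sum.

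KLHL5, a Kelch-family protein, had the smallest adjusted p among all probe sets, and its arrays were tight. It measured 8.91, 8.99 and 9.01 in combination arrays, 8.57, 8.57 and 8.51 in CHR-3996 arrays, 7.85, 7.99 and 8.20 in tosedostat arrays and 4.87, 4.77 and 4.86 in untreated arrays. The 4 groups did not overlap, and the combination was highest. The departure was −2.76 ± 0.15 (SE; adjusted p = 4.2e-05), and 3 of its 4 probe sets were called, at −2.76, −2.59 and −2.53, while the fourth and dimmest had 0.26. PTGER4, a prostaglandin E2 receptor, measured 9.85, 9.63 and 9.63 in combination arrays, 9.85, 9.38 and 9.64 in CHR-3996 arrays, 7.08, 6.88 and 7.25 in tosedostat arrays and 4.60, 4.67 and 4.52 in untreated arrays. The combination and CHR-3996 overlapped, and the departure was −2.39 (adjusted p = 0.00191). CCL4, a chemokine and the 1 gene called of 22 NFkB-induced cytokines, chemokines and receptors tested, followed the same order with changes of 5.20 for the combination, 5.18 for CHR-3996 and 2.82 for tosedostat and a departure of −2.80 (adjusted p = 0.0263).

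Of the genes of 3 NFkB lists, CCL4 and 1 other were called. Of 22 subunits, kinases and adaptors tested, 1 was called lower, against 0.244% of all genes. This was MAP3K14, which encodes NIK, the kinase of the non-canonical arm. It measured 6.88, 7.02 and 6.96 in combination arrays, 5.80, 6.11 and 5.56 in CHR-3996 arrays, 6.37, 6.25 and 6.25 in tosedostat arrays and 3.39, 3.66 and 3.36 in untreated arrays, with the combination above all 9 other arrays. The departure was −1.69 (adjusted p = 0.0127). The untreated mean of 3.47 lies below the 40th percentile, and with low values set to that percentile the departure was −0.71 and not called (adjusted p = 0.142). On the linear scale the combination equalled the sum to within a log2 ratio of −0.01. Of 17 annotated negative regulators, 0 were called by limma, and the median was −0.28. At an unadjusted p of 0.05, 6 of them were lower, against 6.24% of all genes. Lower calls numbered 2 of the 17 after quantile normalization, 2 with the replicate number as a block and 3 with low values set to the 40th percentile. TNFAIP3, which encodes the deubiquitinase A20, had −2.13 (interval −2.96 to −1.31; adjusted p = 0.0532), with changes of 3.88 for the combination, 2.14 for CHR-3996 and 3.88 for tosedostat. Its adjusted p lay between 0.0115 and 0.584 over the 9 alternatives that kept all arrays. NFKBIA, the inhibitor IκBα, had −1.29 (adjusted p = 0.133, and between 0.0309 and 0.601 over those alternatives) and changes of 2.28, 0.87 and 2.70 in that order. CYLD, another deubiquitinase, had −0.70 (adjusted p = 0.197).

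Other genes called lower with every group mean above the 40th percentile included ADAM8, a membrane protease, with −2.14 (adjusted p = 0.0304). Its other probe set had 0.24, and the median of both was −0.95 and not called (adjusted p = 0.137). FCRLA, an Fc receptor-like protein of B cells, was called by all 3 probe sets, at −2.69, −2.10 and −1.96. NLRP7, an inflammasome-family protein, had −2.06 (adjusted p = 0.017) and means of 5.56 for the combination, 5.56 for CHR-3996, 6.75 for tosedostat and 4.69 for untreated cells. By the brightest probe set, the remaining called genes of this kind ranged from −1.79 for TMEM154 to −0.88 for SLC30A4, a zinc transporter, and included KDM7A, a histone demethylase, at −1.40. IFIT2, HLA-DPB1, ADRA1A, NTS and RNF19B had a group mean below the 40th percentile, so the size of their departures is uncertain. With low values set to that percentile, ADRA1A, an adrenergic receptor, gave −0.06 (adjusted p = 0.959) and NTS, the peptide neurotensin, −1.04 (adjusted p = 0.0727), while RNF19B, a ubiquitin ligase, gave −2.31 and stayed called, although the median of its 2 probe sets was not (adjusted p = 0.0878). The 3 probe sets assigned to both PDCD4 and MIR4680 were called lower, at −2.26, −2.21 and −1.69, with changes from 2.64 to 3.33 for the combination, and cannot be given to either.

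The 8 probe sets called higher showed several patterns. PKIA, an inhibitor of protein kinase A, rose with CHR-3996 and fell with tosedostat alone, and in the combination it exceeded both. It measured 9.66, 9.49 and 9.73 in combination arrays, 9.23, 9.09 and 9.09 in CHR-3996 arrays, 5.96, 5.95 and 6.40 in tosedostat arrays and 6.86, 6.86 and 6.76 in untreated arrays. All combination arrays lay above all others, and the departure was 1.21 ± 0.19 (SE; adjusted p = 0.0379). Its second probe set had 0.58 and was not called, the median of both was 0.90 (adjusted p = 0.151), and the call remained in 1 of the 12 fits that left out an array. UHRF1, CENPV, DONSON and KIF26A fell with CHR-3996 and fell by less with the combination. UHRF1, which directs DNA methylation to newly replicated DNA, measured 7.20, 7.38 and 7.70 in combination arrays, 6.56, 6.71 and 6.71 in CHR-3996 arrays, 10.30, 10.24 and 10.49 in tosedostat arrays and 10.78, 10.75 and 10.70 in untreated arrays. Every combination array was above every CHR-3996 array and below every tosedostat array. Its departure was 1.17 (adjusted p = 0.0424), 2.25-fold above the log2 sum.

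CENPV, a protein of the centromere and spindle, had 1.08 (adjusted p = 0.018), with changes of −2.01 for the combination, −2.81 for CHR-3996 and −0.27 for tosedostat. DONSON, a replication fork protein, had 0.86 (adjusted p = 0.0424), a call that was lost with any 1 array left out, and KIF26A, a kinesin, 0.89 (adjusted p = 0.0317). The call of CENPV remained in 5 of the 12 fits that left out an array, and those of UHRF1 and KIF26A in 1 each. Several lower calls remained in as few, as given in the closing section. RGS12, a regulator of G protein signalling, and EXOSC6, an exosome subunit, were called by a probe set that was not the brightest, at 1.07 and 1.40. RGS12 changed by −0.30 with the combination, −0.66 with CHR-3996 and −0.71 with tosedostat. The largest of the 8 departures, 2.25, belonged to a probe set with no gene in the annotation used here, which had changes of 0.01, −0.80 and −1.45 in that order and a group mean below the 40th percentile. Genes with the next smallest p on this side were not called. Among those with every group mean above the 40th percentile the largest departure was that of KLF2, a factor that restrains endothelial and lymphocyte activation, which measured 11.63, 10.86 and 11.01 in combination arrays, 9.62, 9.57 and 9.66 in CHR-3996 arrays, 8.63, 8.24 and 8.48 in tosedostat arrays and 8.74, 8.94 and 8.27 in untreated arrays. All combination arrays were above all others, and its departure of 1.75 (interval 1.07 to 2.43) had an adjusted p of 0.0555 in limma, and between 0.00697 and 0.15 over the 9 alternatives to the processing that kept all arrays. TGFBR3, a co-receptor for TGF-beta, had 1.12 (adjusted p = 0.0508) and MAP2K6, a kinase of the p38 pathway, 0.98 (adjusted p = 0.0754).

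Genes of mitosis and DNA replication departed mostly upward, without a call in either list. Of 34 mitosis genes tested, 0 were called by limma. At an unadjusted p of 0.05, 18 were higher and 0 lower, against 4.94% and 6.24% of all genes. All 34 departures were above 0, against 51.6% of all genes, between 0.29 for PLK1 and 1.15 for ANLN. The median was 0.81, beside 0.01 over all genes tested. The median changes of the list were −0.97 for the combination, −1.30 for CHR-3996 and −0.47 for tosedostat, so the combination was lower than the untreated cells by less than CHR-3996 alone. CDK1, the kinase that drives entry into mitosis, had 0.96 (adjusted p = 0.433), and AURKB, a kinase of chromosome segregation, 1.01 (adjusted p = 0.256). Of 40 DNA replication genes, 0 were called, and 23 were higher at an unadjusted p of 0.05, against 4.94% of all genes. Above 0 were 39 of the 40, against 51.6% of all genes, with a median of 0.64. PCNA, the sliding clamp, had 0.76 (adjusted p = 0.157) and CLSPN, a mediator of the replication checkpoint, 1.21 (adjusted p = 0.169). Of 23 genes of homologous recombination, the Fanconi pathway and the checkpoint, 0 were called. At an unadjusted p of 0.05, 9 of these were higher, against 4.94% of all genes. Their median was 0.52, and the highest value, 1.68, was that of FANCB (limma adjusted p = 0.0803). Of 30 cyclins and CDK inhibitors, 0 were called, 10 were below 0 and the median was 0.29. The genes of a list move together on the same arrays, so these counts are not independent.

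The arrays of the cell cycle lists were widely spread within groups. The median of the mitosis list relative to the untreated means was −1.37, −0.90 and −0.58 in combination replicates 1, 2 and 3, −1.97, −1.18 and −0.94 in CHR-3996 replicates, −0.57, −0.55 and −0.26 in tosedostat replicates and −0.04, 0.00 and 0.05 in untreated replicates. The combination and CHR-3996 arrays overlapped, although the combination lay above CHR-3996 at each replicate number, whose meaning no label gives. For DNA replication the values were −1.45, −1.16 and −1.05 in the combination, −1.99, −1.66 and −1.50 in CHR-3996, −0.22, −0.21 and −0.07 in tosedostat and 0.03, −0.01 and 0.00 in untreated cells, where the combination and CHR-3996 did not overlap. Replicate 1 was the lowest in the combination, in CHR-3996 and in tosedostat for both lists. On the linear scale, 26 of the 34 mitosis genes had a linear sum above 0 and all 26 lay above it. For a gene lowered by both compounds and above the log2 sum this follows from arithmetic, so it adds no further result. The linear test was passed as higher by 5 of the 34.

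**Figure D4:**
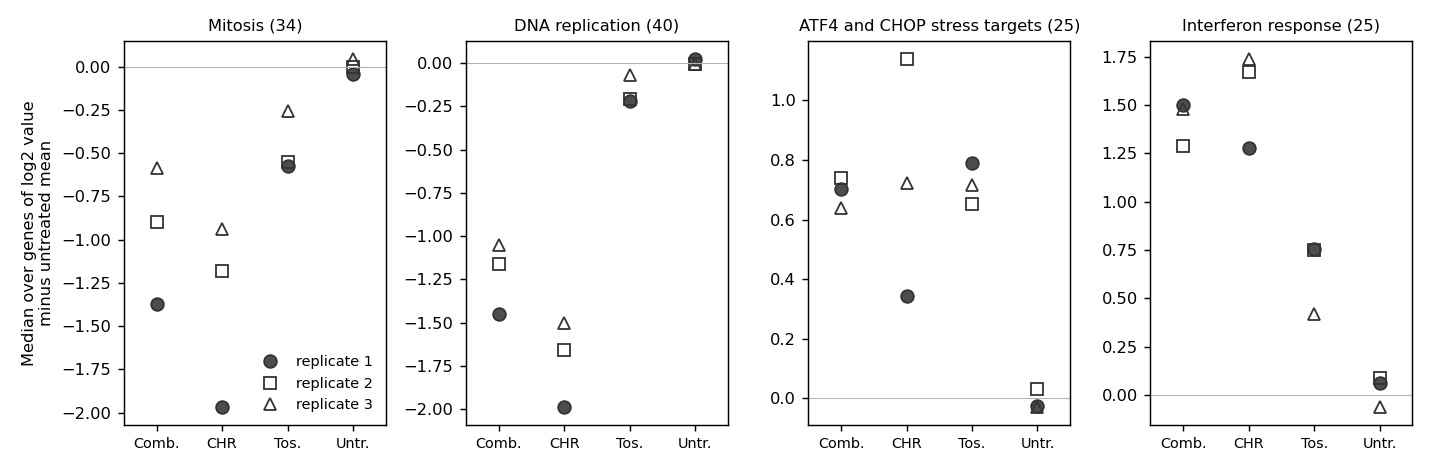
Median over the genes of 4 lists of the log2 value minus the untreated mean of the gene, on each of the 12 arrays, with a symbol for each replicate number and the combination (Comb.), CHR-3996 (CHR), tosedostat (Tos.) and untreated cells (Untr.) on the x axis. The mitosis list overlaps between the combination and CHR-3996, with replicate 1 lowest in both, and the stress list overlaps among all treated groups.

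In several lists all or most departures were bounded within 2-fold. All 27 proteasome subunits, all 27 oxidative phosphorylation genes and all 25 ribosome biogenesis genes had an interval within 1 of 0 on the log2 scale, with medians of 0.03, 0.02 and 0.10. Of 23 aminopeptidases and other peptidases of peptide breakdown, the class of enzymes that tosedostat inhibits, 22 had such an interval and the departures lay between −0.52 and 0.36. Of 29 unfolded protein response genes, 27 had such an interval and 0 were called. Over all genes tested the share was 69.7%, and for the mitosis, interferon and stress lists it was 5.88%, 20% and 24%, so for most genes of those 3 lists a departure of 2-fold was neither called nor placed outside the interval.

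**Figure D5:**
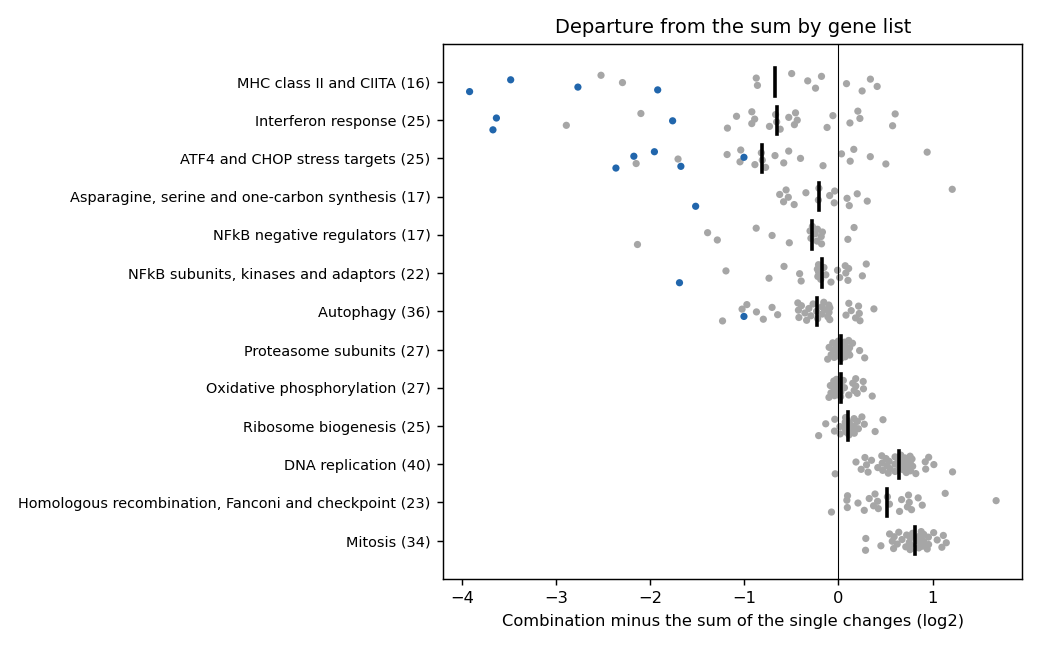
Departure from the log2 sum (x axis, combination minus CHR-3996 minus tosedostat plus untreated) for each gene of 13 lists, with the number of genes tested in brackets, called genes in blue and the list median as a black bar. The class II, interferon and stress lists reach far to the left with medians from −0.81 to −0.66, the proteasome, oxidative phosphorylation and ribosome lists stay near 0, and the replication, recombination and mitosis lists lie to the right.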

How the data were processed

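RNA of each sample was amplified, labelled and hybridized to an Affymetrix U133 Plus 2.0 array, and the authors processed the arrays in dChip. The table they deposited holds log2 expression values for 54675 probe sets, a scale read from their range. No source used here gives the version of dChip, its normalization or its probe summary, and each array holds between 1141 and 1344 values of exactly 0, so changes of dim probe sets are uncertain in size. The 62 control probe sets were left out. A probe set was tested if it exceeded the 40th percentile in 3 or more of the 12 arrays, which kept 36395 of 54613. The values as deposited were fitted in limma 3.58.1 (R 4.3.3) with 1 term for each of 4 groups, leaving 8 residual degrees of freedom. The two-sided p-values were corrected over all probe sets tested (Benjamini-Hochberg, threshold 0.05). The number of arrays limits the precision.

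Gene symbols were read from GEO's platform annotation and brought up to date with RefSeq identifiers. Of the probe sets tested, 29161 had 1 symbol, 1365 several and 5869 none in the annotation used here, and the last are not reported by gene. Named were the 12 most negative and 12 most positive departures among called genes whose 4 group means exceed the mean 40th percentile, the 5 on each side among called genes with a lower mean, 3 of the 4 probe sets that the study lists as NFkB regulators (the fourth is not annotated here and is not reported by gene), and up to 4 called members of each of 40 lists. Uncalled genes of the smallest p followed where calls ran out. Other genes were named after their values were seen. The members, lists and motifs were chosen with earlier results of these data known. Lists not described in the report had at most 1 called gene each.

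The alternatives rescaled the arrays (quantile normalization, or a common median), dropped the filter or moved it to the 60th percentile, raised low values to the 40th percentile, blocked on the replicate number, let the prior variance follow intensity with robust estimation, added changes on the linear scale, took the median over the probe sets of a gene, or left out each array in turn. The fit on the linear scale also used the variance trend and robust estimation. Plots were made in Python 3.11.15 (matplotlib 3.10.9).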

Additional observations from a re-analysis of the deposited data

Results flagged for a closer look

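The effect of CHR-3996 differed between cells with and without tosedostat, by the limma test of that difference, in 43 genes, and each value below is the effect with tosedostat minus the effect without it on the log2 scale. The difference was negative in 38 genes. Among class II and antigen processing genes it was negative in HLA-DPB1 (−3.92), HLA-DPA1 (−3.48), HLA-DQB1 (−2.77) and HLA-DMA (−1.92). Among genes of the interferon response it was negative in IFIT2 (−3.67), IFIT3 (−3.63) and IFIH1 (−1.76) of the list, and in SAMD9L (−1.69) outside it. Among genes of the ATF4 and CHOP stress list it was negative in DDIT3 (−2.36), CTH (−2.17), SESN2 (−1.95), ATF3 (−1.67) and SQSTM1 (−1.004). Outside that list, it was negative in INHBE (−2.93), GTPBP2 (−1.83) and CBS (−1.52), placed here by their function. The other negative values were those of CCL4 (−2.80), KLHL5 (−2.76), ADRA1A (−2.50), PTGER4 (−2.39), NTS (−2.35), RNF19B (−2.24), ADAM8 (−2.14), FCRLA (−2.10), NLRP7 (−2.06), TMEM154 (−1.79), MAP3K14 (−1.69), SH2D3C (−1.67), CRYZ (−1.47), PLAC1 (−1.45), RAB39B (−1.45), KDM7A (−1.40), LRATD2 (−1.34), UBE2QL1 (−1.27), FAM171B (−1.25), R3HDM2 (−1.08), LINC02382 (−0.93) and SLC30A4 (−0.88). The difference was positive in 5 genes, DONSON (0.86), KIF26A (0.89), CENPV (1.08), UHRF1 (1.17) and PKIA (1.21). No sample group was large enough for a test of single outlying arrays.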

How the results depend on the processing

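The counts of calls moved widely with the processing, while the direction did not on the log2 scale: all of the 75 called probe sets that were tested under an alternative kept their sign in each log2 alternative and with each array left out. In place of 67 lower and 8 higher probe sets, quantile normalization gave 147 and 19, no filter 21 and 1, and a filter at the 60th percentile 184 and 40. Low values set to the 40th percentile gave 146 and 45, and a variance trend with robust estimation 196 and 49. Addition on the linear scale, fitted with that same variance trend and robust estimation, gave 137 and 114. Equal array medians gave 81 and 7. The median of a gene's probe sets gave 67 lower and 14 higher genes in place of 38 and 5. The number of probe sets with an interval within 1 of 0 stayed within 1.5 times. With 1 array left out at a time, lower calls lay between 21 and 79 and higher calls between 0 and 9, with the fewest in all, 22, without CHR-3996 replicate 2. Of the 75, 18 were called in all 12 such fits, among them probe sets of KLHL5, PTGER4, DDIT3, INHBE, IFIT2, IFIH1, MAP3K14, ADRA1A, HLA-DPA1, HLA-DPB1 and HLA-DQB1, and 1, that of DONSON, in none. Other lower calls remained in few of the 12: HLA-DMA, SQSTM1 and NFE2L1 in 1 each, and CTH, SAMD9L and KDM7A in 2 each. Those of ATF3, CBS, CCL4, GTPBP2 and ADAM8 remained in 3 each, and that of HLA-DRA in 4. On the linear scale, 9 of the 75 changed sign. Of these 1, a probe set with no gene in the annotation used here, passed the test there, and the other 8 did not: HLA-DPA1 at 0.0487, HLA-DPB1 at 0.0768, HLA-DMA at 0.16, HLA-DRA at 0.38, and HLA-DQB1 probe sets at 0.0302, 0.0391, 0.0718 and 0.0877.

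The groups share replicate numbers, but nothing states what a number marks, and the correlation of the deviations of same-numbered arrays, though above 0 in all 18 pairs, was under 0.1 in 3 (r from 0.04 to 0.29), so the samples were read as unpaired. In 35 of 36 comparisons an array correlated best with its own number in another group, a hint from the data and not from the design. With the replicate number as a block, 189 probe sets were called lower and 42 higher, including all 75, and 25231 had an interval within 1 of 0. In that fit 0 of the 34 mitosis genes and 1 of the 40 DNA replication genes were called higher, and 2 of the 17 NFkB negative regulators lower. Genes with a group mean below the 40th percentile have a departure of uncertain size, 16 of the 67 lower and 3 of the 8 higher probe sets.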
